A study of Mus musculus with 24 samples.

Results

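The comparison described here asks whether adrenalectomy altered the effect of night noise on the RNA of the mouse cochlea. It is a difference of differences: noise minus sham exposure in adrenalectomized mice, minus noise minus sham exposure in sham-operated mice, and it is a contrast between the 12 of 24 libraries labelled night. The model was fitted to all 24, so the filter, the estimate of spread and the p-values rest on the day libraries too. A value below 0 means that the noise effect was smaller or more negative in adrenalectomized mice, and a value above 0 that it was larger. The cochleae came from CBA/Sca mice aged 12 weeks, and each night group had 3 libraries, lettered a to c. The groups were adrenalectomized mice exposed to noise at night, adrenalectomized mice given a sham exposure at night, sham-operated mice exposed to noise at night and sham-operated mice given a sham exposure at night. Noise was a band from 6 to 12 kHz at 100 dB SPL for 1 h, given in the night at ZT15, that is 15 h after lights-on. The series text puts collection 2 h after the noise, near ZT18, whereas the sample labels give ZT23 for the night libraries, and the sources used here do not settle which holds. They give neither the interval from surgery to exposure nor any hormone replacement, and they do not say whether the libraries of a group came from separate animals, so the p-values measure the spread between these samples.

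Adrenalectomy (ADX) removes the glands that make corticosterone, the main glucocorticoid of the mouse, which binds the receptor encoded by Nr3c1 and switches on genes such as Fkbp5 and Tsc22d3, while it restrains many inflammatory genes. Loud sound excites hair cells and spiral ganglion neurons, and the cochlea answers with immediate early genes such as Fos and Egr1, which encode transcription factors made within minutes of a stimulus, followed by chemokines and repair factors. The cochlea also holds a circadian clock, and glucocorticoids are among the signals that set peripheral clocks.

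The night libraries held between 20409233 and 32600253 counts. Transcripts of hair cells (Otof, Myo7a), stria vascularis (Kcnq1) and spiral ganglion neurons (Nefl, Tubb3) were present in every night library. Some libraries stood apart. In the library labelled night noise ADX a, transcripts of the pituitary gland summed to 9799 CPM (counts scaled to library size) over the 5 pituitary markers that passed the filter on low counts. The sum was 13.1 and 136 CPM in night noise ADX b and c, and between 2.77 and 15.9 CPM in the other 9 night libraries. The same library labelled night noise ADX a had Fkbp5 at 87.6 CPM, against 39.6 and 28.1 CPM in b and c and against 27.5 to 43.9 CPM after sham exposure in ADX mice. The 6 sham-operated libraries held 78.9 to 132 CPM. For glucocorticoid-induced genes such as Fkbp5 the library labelled night noise ADX a thus lay among the sham-operated night libraries. The day noise ADX libraries were also raised, with Fkbp5 at 68.2, 56.0 and 61.1 CPM in a, b and c. Day sham exposure ADX libraries held 30.5 to 35.5 CPM, and day sham-operated libraries 41.7 to 85.0 CPM. The cause was not tested. The cerebellar gene Cbln3 stood at 13.8, 33.3 and 7.36 CPM in night noise sham-operated a, b and c. In the other 9 night libraries it stood at 1.62 to 2.97 CPM, so leaving out b does not remove this difference between groups. Many, but not all, values are also given without the library labelled night noise ADX a. Only counts of calls and some list medians are given without night noise sham-operated b.

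With all libraries, no gene among 16607 tested had an interaction past an adjusted p of 0.05 in edgeR's quasi-likelihood test with Benjamini-Hochberg adjustment, which is 0% of the genes tested. At an unadjusted p under 0.05 there were 1056 genes (6.36%), 542 with a value above 0 and 514 below 0. The smallest adjusted p was 0.336, for Tspan4. A fit of the night libraries alone tested 16406 genes and called 0, with a smallest adjusted p of 0.499. DESeq2 called 3 genes (Tspan4, Adamts10 and the pituitary hormone precursor Pomc, which was named after its values were seen), and limma voom and every other setting called 0. Without the library labelled night noise ADX a the count stayed at 0, with 1325 genes at an unadjusted p under 0.05 and a smallest adjusted p of 0.591. The precision behind this count can be stated: over the 15228 genes whose log2 CPM averaged 0 or more, the standard error (SE) of the interaction had a median of 0.139 on the log2 scale, and the 95% interval reached a median of 0.289 to either side. For 13553 of them (89%) the whole interval lay between -1 and 1, so an interaction of 2-fold or more lay outside the interval for these genes, and smaller ones did not for many.

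The noise effect itself was called in both surgery groups. In ADX mice 83 genes (0.5%) were called, 72 higher (0.434%) and 11 lower (0.0662%) after noise, and in sham-operated mice 119 (0.717%), with 111 higher (0.668%) and 8 lower (0.0482%). The counts depended on the tool, most of all for genes lower after noise. DESeq2 called 184 genes in ADX mice, 138 higher and 46 lower, and 210 in sham-operated mice, 175 higher and 35 lower. With limma voom there were 69 in ADX mice, 62 higher and 7 lower, and 254 in sham-operated mice, 175 higher and 79 lower. The night libraries alone gave 49 in ADX mice and 116 in sham-operated mice. The lists shared 57 genes, 68.7% of the ADX calls and 47.9% of the sham-operated calls, and 56 of these were higher in both. The exception was Klhdc7a, lower in both at 49.3 ± 3.96 CPM after noise and 76.3 ± 3.94 CPM after sham exposure in ADX mice, and at 48.4 ± 10.98 CPM after noise and 72.2 ± 9.49 CPM after sham exposure in sham-operated mice (SD, n = 3 each). Over the 57 shared genes the median noise effect was 0.89 in ADX mice and 1.14 in sham-operated mice on the log2 scale, and their interactions ran from -1.85 for Sprr1a to 0.30 for Gm13889. Of the 56 genes higher in both, 38 had an interaction below 0, and 44 without the library labelled night noise ADX a, against 51.7% and 53.1% of all genes. These 56 were selected by their noise calls in the same night libraries. Most genes of the background were not called for noise, so the shares are not a test. A further 26 genes were called in ADX mice alone and 62 in sham-operated mice alone. None of these 145 genes passed the test of the difference, so a call in one surgery group and not in the other does not show that the noise effect differed. The count of calls in ADX mice rested on single libraries: it was 50 when the library labelled night noise ADX a was left out, 134 with night noise ADX c left out, and 48 and 37 without night sham exposure ADX a and c. The count in sham-operated mice was 78 without night noise sham-operated b.

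**Figure D1:**
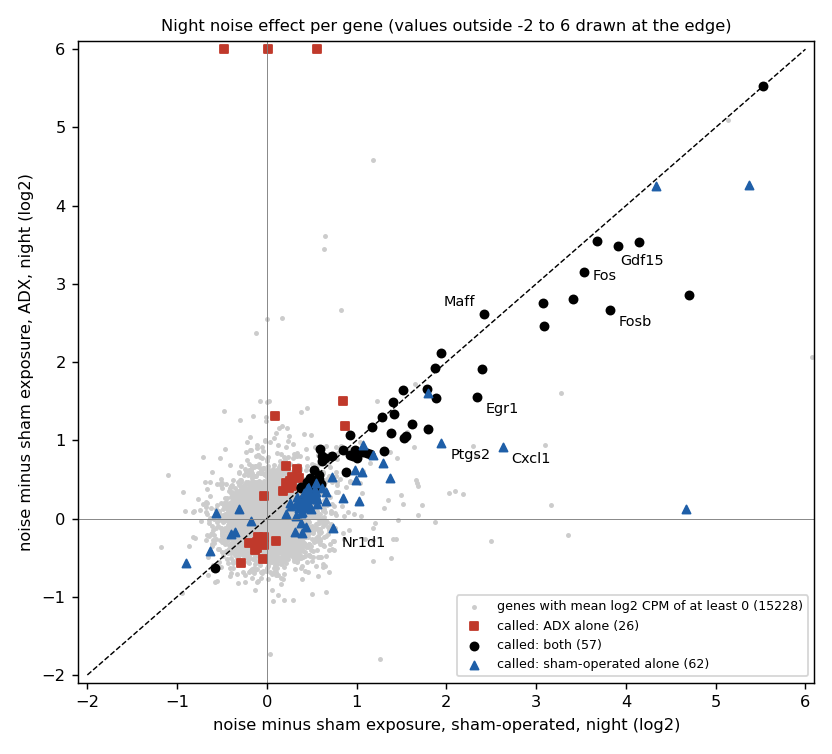
Night noise effect (noise minus sham exposure, log2) in ADX mice on the vertical axis against that in sham-operated mice on the horizontal axis, 1 point per gene, with the dashed line marking equal effects. The 57 genes called in both groups (black) run along the line, mostly on or below it, and the genes drawn at the top edge are Pomc and Prl, which encode pituitary hormones, and Dlk1, at 112 CPM in the library labelled night noise ADX a.

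Promoter sequences of 3 of the genes that carry these results are shown. Fos and Sgk1 were called for noise in both surgery groups and Ptgs2 in sham-operated mice alone. Windows of Nr1d1, also called in sham-operated mice alone, and of Dbp were searched too. They held none of the sequences marked below and are not shown. Each is 300 bases from RefSeq on GRCm38.p6, from 250 bases before the annotated start to 50 after it, printed 5′ to 3′ on the gene's strand. Capitals mark the full glucocorticoid response element (15 letters, with 3 free in the middle), TGACG (the core of the cAMP response element), TGACTCA (the AP-1 element) or CACGTG (the E-box), searched on both strands, so that a capital run can be the reverse complement. Fos holds TGACG at 2 places, Sgk1 holds CACGTG and the full element, and in Ptgs2 a match to TGACG on the reverse strand overlaps CACGTG.
Fos, chr12:85473640-85473939, plus strand: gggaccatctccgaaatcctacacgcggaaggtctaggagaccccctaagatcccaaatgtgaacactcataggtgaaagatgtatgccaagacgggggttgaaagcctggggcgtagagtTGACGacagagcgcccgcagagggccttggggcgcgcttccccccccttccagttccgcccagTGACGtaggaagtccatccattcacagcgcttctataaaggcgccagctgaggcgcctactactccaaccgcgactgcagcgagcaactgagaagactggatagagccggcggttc
Sgk1, chr10:21993640-21993939, plus strand: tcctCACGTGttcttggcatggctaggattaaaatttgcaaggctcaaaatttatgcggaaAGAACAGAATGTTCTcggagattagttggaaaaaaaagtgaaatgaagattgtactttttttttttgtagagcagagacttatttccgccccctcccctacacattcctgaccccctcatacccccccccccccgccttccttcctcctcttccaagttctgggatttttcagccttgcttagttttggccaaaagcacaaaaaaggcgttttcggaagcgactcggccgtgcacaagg
Ptgs2, chr1:150099781-150100080, plus strand: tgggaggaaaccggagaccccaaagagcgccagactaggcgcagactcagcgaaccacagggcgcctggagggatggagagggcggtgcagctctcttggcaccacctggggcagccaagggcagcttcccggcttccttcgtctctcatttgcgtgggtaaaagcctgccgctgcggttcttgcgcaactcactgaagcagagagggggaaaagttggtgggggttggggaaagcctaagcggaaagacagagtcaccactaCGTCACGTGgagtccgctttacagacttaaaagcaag

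The Sgk1 window belongs to 1 of 6 annotated starts of that gene and was chosen because it holds the element, which the other 5 windows lack. It held the full glucocorticoid response element, which stood in 3 of 32851 promoter windows of the table (0.00913%). Of the 32 windows of glucocorticoid-induced genes, 1 held it. TGACG stood in 20.8% of all windows and in 28.1% of the 15309 windows of tested genes. Among the 56 genes higher after noise in both surgery groups, 39 matched the table with 50 windows, and 24 of these windows (48%) held TGACG. Of the 25 windows of 19 immediate early genes, 16 (64%) held it. CACGTG stood in 7.15% of all windows and TGACTCA in 5.2%. TGACG includes every TGACGTCA, which stood in 1.79% of all windows, in 2.73% of those of tested genes and in 3 (6%) of the 50. These are matches of letters, and windows of the same gene are not independent of each other.

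Immediate early genes were higher after noise with and without adrenal glands, and nearly all of them had a smaller noise effect in ADX mice by point estimate. Of 25 members tested, 11 rose in ADX mice (0.434% of all genes did) and 17 in sham-operated mice (0.668% of all genes), and all 11 were among the 17. This list and those below were chosen with earlier results of these data known. Their shares of calls are therefore descriptions and do not test whether a list responds to noise. The median noise effect of the 25 was 0.53 in ADX mice and 1.18 in sham-operated mice on the log2 scale, against 0.00 and 0.00 over all genes tested. The interaction was below 0 for 22 of the 25, with a median of -0.38, and for 24 of them with a median of -0.52 without the library labelled night noise ADX a. Over all genes 51.7% lay below 0, and 53.1% without that library. Members of a list were measured in the same libraries and can vary together. A count of their signs, here and for the lists below, is thus not a count of independent observations. No member passed the test of the interaction, and 4 had an unadjusted p under 0.05, all with values below 0 (Cyr61, Arc, Klf2 and Klf4, named after their values were seen). In that direction 3.1% of all genes had such a p.

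Fos, a partner in the AP-1 transcription factor, had 66.7, 63.6 and 25.2 CPM after noise and 5.81, 6.11 and 5.61 CPM after sham exposure in ADX mice. In sham-operated mice it had 122, 115 and 51.1 CPM after noise and 6.76, 8.54 and 9.63 CPM after sham exposure. Noise libraries lay above the sham exposure libraries in both surgery groups, and library c was the lowest of each noise group. The rise was 8.85-fold in ADX mice (adjusted p = 0.000745) and 11.5-fold in sham-operated mice (adjusted p = 0.000105), and the ratio of these folds was 0.767 with a 95% interval from 0.32 to 1.84. Egr1, a zinc-finger transcription factor, had 173, 174 and 82.4 CPM after noise and 38.2, 45.6 and 62.9 CPM after sham exposure in ADX mice. Sham-operated mice had 247, 262 and 135 CPM after noise and 38.6, 47.5 and 41.6 CPM after sham exposure. Again the groups did not overlap within a surgery, and the noise libraries of ADX and sham-operated mice did. Its interaction was -0.79 (SE 0.45, edgeR adjusted p = 0.833), and without the library labelled night noise ADX a the rise in ADX mice lost its call (adjusted p = 0.142). The same held for Fosb (0.11), Cyr61 (0.062), Junb and Nr4a3, so that 6 of the 11 ADX calls of the list remained without it.

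The early genes had a like order of libraries. Of the list's 17 members called in either surgery group, library c was the lowest of the 3 noise libraries for 16 in ADX mice and for all 17 in sham-operated mice. For MAP kinase feedback genes called in either group it was 6 and 5 of 7, and for growth and repair genes 4 and 4 of 8. These members were selected by their noise calls in the same libraries, and the share over all genes is not given here. The list's level, a mean of log2 CPM centred per gene over the 12 night libraries, was 0.78, 0.47 and 0.08 in noise libraries a, b and c of ADX mice. It was 1.01, 1.01 and 0.54 in those of sham-operated mice, and between -0.67 and -0.63 in the 6 sham exposure libraries. The library labelled night noise ADX a, which held the pituitary transcripts, thus had the highest level among the ADX libraries; the part of these transcripts in the result was not tested. Markers of macrophages, erythroid cells and neutrophils had the same order in the noise libraries. Lymphoid markers had the reverse order in ADX mice, at -0.04, 0.04 and 0.10 in a, b and c. In sham-operated mice they stood at 0.20, -0.09 and -0.24. The centred level of macrophage markers in a, b and c was 0.19, -0.0020 and -0.18 in ADX mice and 0.28, 0.14 and 0.02 in sham-operated mice. Erythroid markers stood at 0.22, 0.08 and -0.52 in ADX mice and 0.39, 0.21 and -0.26 in sham-operated mice, and neutrophil markers at 0.08, -0.06 and -0.29 in ADX mice and 0.21, 0.13 and -0.08 in sham-operated mice. Their part in the levels of the early genes was not tested.

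Among the other members, Fosb, a relative of Fos, had 11.2, 6.49 and 2.35 CPM after noise and 0.821, 1.07 and 1.29 CPM after sham exposure in ADX mice. In sham-operated mice it had 14.9, 14.8 and 6.93 CPM after noise and 0.915, 0.734 and 0.926 CPM after sham exposure. Its interaction was the lowest of the list at -1.15 (SE 0.75) with all libraries and -1.77 without the library labelled night noise ADX a. Cyr61, which encodes a secreted matrix protein, had 163, 133 and 89.2 CPM after noise and 63.7, 56.2 and 54.4 CPM after sham exposure in ADX mice. In sham-operated mice the values were 213, 220 and 128 CPM after noise and 50.6, 52.5 and 58.8 CPM after sham exposure. The interaction of Cyr61 was -0.65 (SE 0.28, edgeR adjusted p = 0.77). Arc, whose product acts at synapses of neurons, was called in sham-operated mice alone, with 7.93, 8.56 and 6.91 CPM after noise and 6.57, 3.84 and 5.805 CPM after sham exposure in ADX mice, against 12.8, 12.1 and 8.61 CPM after noise and 3.55, 5.33 and 4.04 CPM after sham exposure in sham-operated mice. Maff, a small Maf transcription factor, and Fosl1, another relative of Fos, had like effects by point estimate: Maff rose by 2.62 in ADX mice and 2.42 in sham-operated mice on the log2 scale, with an interaction of 0.20 that became -0.04 without the library labelled night noise ADX a. Fosl1 stood between 2.11 and 3.77 CPM in the 6 noise libraries of both surgery groups and at or under 0.106 CPM in the 6 sham exposure libraries, with an interaction of -0.01 whose interval ran from -2.03 to 2.02.

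Nr4a1, an orphan nuclear receptor, had 174, 99.0 and 48.0 CPM after noise and 20.6, 17.9 and 19.9 CPM after sham exposure in ADX mice, and 208, 215 and 123 CPM after noise and 19.4, 23.5 and 21.7 CPM after sham exposure in sham-operated mice. Noise libraries lay above sham exposure libraries in both surgery groups, with library a the highest in ADX mice. The interaction was -0.63 (SE 0.52), and -1.17 without the library labelled night noise ADX a. Atf3, a transcription factor of stress and nerve injury, had 21.3, 16.2 and 13.1 CPM after noise and 4.62, 5.08 and 3.78 CPM after sham exposure in ADX mice, and 29.8, 30.9 and 16.6 CPM after noise and 4.54, 5.21 and 4.89 CPM after sham exposure in sham-operated mice, with an interaction of -0.49 (SE 0.37). Gem, which encodes a GTP-binding inhibitor of calcium channels, had 46.9, 40.3 and 29.0 CPM after noise in ADX mice and 58.3, 53.8 and 32.8 CPM in sham-operated mice, and between 3.12 and 4.15 CPM in the 6 sham exposure libraries. It rose in both groups, with an interaction of -0.13 (SE 0.49).

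**Figure D2:**
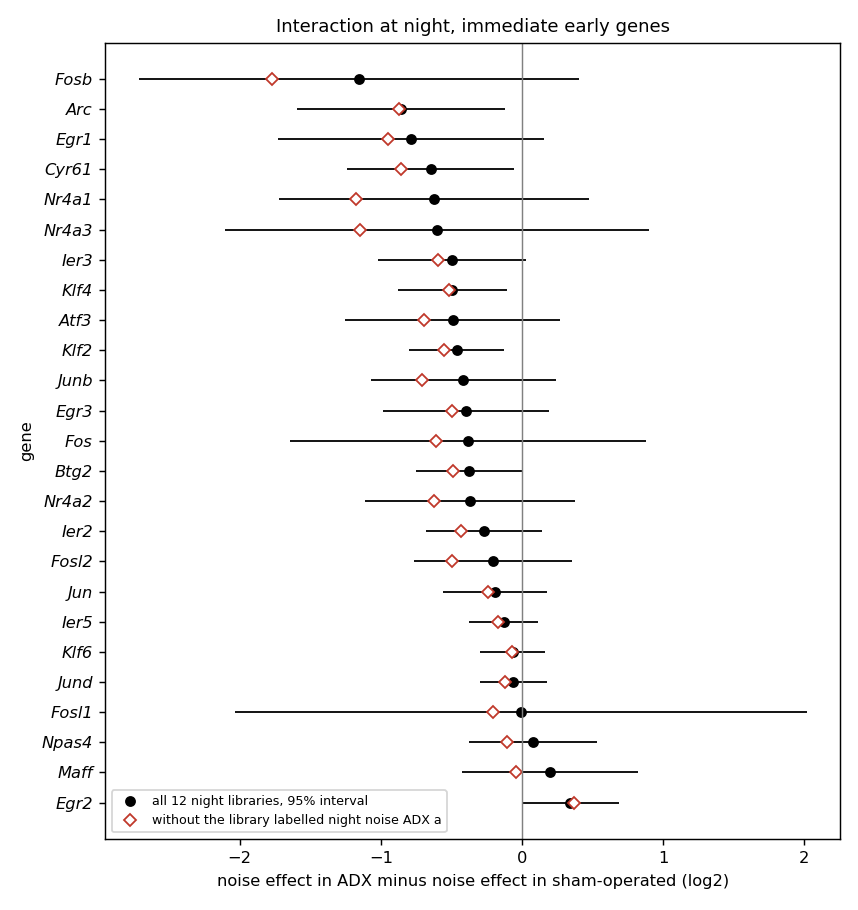
Interaction (noise effect in ADX minus noise effect in sham-operated mice, log2) of the 25 immediate early genes tested, 1 row per gene, with 95% intervals (black) and the value without the library labelled night noise ADX a (open diamonds). Of these, 22 values lie left of 0 with all libraries and 24 without that library, and most intervals cross 0.

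Feedback inhibitors of MAP kinase signalling, which are induced by the same pathway as the early genes, had smaller noise effects. Of 14 tested, 5 rose in ADX mice (0.434% of all genes did) and 7 in sham-operated mice (0.668% of all genes). The 14 had median noise effects of 0.31 and 0.44. Their median interaction was -0.12, and -0.15 without the library labelled night noise ADX a. It was -0.08 without both that library and night noise sham-operated b. With all libraries 8 of the 14 interactions lay below 0 and 6 above, against 51.7% of all genes below 0. Without the library labelled night noise ADX a 9 lay below 0, against 53.1% of all genes. Dusp5, a nuclear phosphatase of ERK, had 8.52, 6.20 and 5.79 CPM after noise and 3.77, 3.08 and 3.19 CPM after sham exposure in ADX mice, and 10.8, 12.2 and 7.05 CPM after noise and 3.80, 3.28 and 3.30 CPM after sham exposure in sham-operated mice. It rose in both groups, in ADX mice only with the library labelled night noise ADX a (adjusted p = 0.143 without it), and its interaction of -0.50 (SE 0.29) did not pass. Dusp16, a phosphatase of JNK and p38, had the smallest unadjusted p of the list, 0.00584, with 54.2, 54.0 and 54.1 CPM after noise and 47.0, 43.1 and 45.4 CPM after sham exposure in ADX mice, and between 49.7 and 55.8 CPM in all 6 sham-operated libraries. Its interaction was 0.26 (SE 0.08, edgeR adjusted p = 0.76). Nab2, a corepressor of Egr1 that stands on no list and was 1 of 2 shared calls with an unadjusted interaction p under 0.05 (the other being Cyr61), averaged 66.4 ± 6.52 CPM after noise and 37.5 ± 0.736 CPM after sham exposure in ADX mice, and 71.6 ± 2.35 CPM after noise and 32.4 ± 1.37 CPM after sham exposure in sham-operated mice (SD, n = 3 each). Its interaction was -0.32.

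Among chemokines and cytokines, 4 of 20 members rose in ADX mice and 5 in sham-operated mice, against 0.434% and 0.668% of all genes. The list's median noise effects were 0.28 and 0.44, and its median interaction was -0.25. Of the 20 interactions 15 lay below 0, against 51.7% of all genes. The 4 shared calls were Ccl2 and Ccl7, which draw monocytes into tissue, Gdf15, a stress cytokine, and Lif, of the interleukin 6 family, whose call in ADX mice was lost without the library labelled night noise ADX a (adjusted p = 0.075). Gdf15 had 8.01, 9.84 and 6.25 CPM after noise and 0.608, 0.641 and 0.896 CPM after sham exposure in ADX mice. Its levels in sham-operated mice were 12.1, 8.72 and 10.05 CPM after noise and 0.598, 0.966 and 0.481 CPM after sham exposure. That is a rise of 11.2-fold in ADX mice and of 15.1-fold in sham-operated mice, with a ratio of folds of 0.743 and a 95% interval from 0.382 to 1.45. Ccl2 had 2.40, 4.28 and 4.13 CPM after noise in ADX mice and 4.42, 3.53 and 2.38 CPM in sham-operated mice, and 0.333 to 0.740 CPM in the 6 sham exposure libraries, so that noise libraries of both surgeries overlapped. Cxcl1, which draws neutrophils, was called in sham-operated mice alone. It was low throughout, with 0.628, 0.984 and 0.347 CPM after noise and 0.182, 0.513 and 0.351 CPM after sham exposure in ADX mice, and 0.876, 0.697 and 0.779 CPM after noise and 0.106, 0.116 and 0.148 CPM after sham exposure in sham-operated mice. Its interaction of -1.71 (SE 0.66) had an edgeR adjusted p of 0.76.

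The NF-kB and acute-phase list held the cyclooxygenase gene Ptgs2, whose enzyme starts prostaglandin synthesis and which glucocorticoids are known to restrain. Of its 21 members tested, 1 rose in ADX mice (Socs3, the feedback inhibitor of STAT3 signalling) and 3 in sham-operated mice (Socs3, Ptgs2 and Cebpb). The shares over all genes were 0.434% and 0.668%. Ptgs2 had 7.81, 6.20 and 8.22 CPM after noise and 4.23, 2.90 and 4.25 CPM after sham exposure in ADX mice. Sham-operated mice had 11.1, 11.6 and 11.6 CPM after noise and 2.89, 3.67 and 2.37 CPM after sham exposure. The 3 noise libraries of ADX mice lay below the 3 of sham-operated mice and above all sham exposure libraries. The fold was 1.95 in ADX mice (adjusted p = 0.0554) and 3.84 in sham-operated mice (adjusted p = 3.41e-05), and the ratio of folds was 0.507 with a 95% interval from 0.321 to 0.8. The interaction of Ptgs2 was -0.98 (SE 0.32, unadjusted p = 0.00541, edgeR adjusted p = 0.76), and -1.02 without the library labelled night noise ADX a. The median interaction over the list was -0.10, and -0.18 without that library, with all 21 members then below 0, against 53.1% of all genes.

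Of the genes of growth and tissue repair, 8 of 16 were called after noise in at least 1 surgery group. Of the 16 tested, 7 rose in each surgery group, 6 of them in both, against 0.434% of all genes in ADX mice and 0.668% in sham-operated mice. The list's median noise effect was 0.43 in ADX mice and 0.43 in sham-operated mice. Its median interaction was -0.13, with 10 of 16 below 0, against 51.7% of all genes. Tnfrsf12a, the receptor of the cytokine TWEAK, had 54.9, 52.6 and 50.3 CPM after noise and 17.0, 16.9 and 16.5 CPM after sham exposure in ADX mice. In sham-operated mice it had 57.5, 52.9 and 48.1 CPM after noise and 18.3, 20.5 and 16.7 CPM after sham exposure. Its interaction of 0.14 had an SE of 0.16, and library c, low for the early genes, was close to a and b here. Hbegf, which encodes a ligand of EGF receptors, rose by 1.55 in ADX mice and 1.88 in sham-operated mice on the log2 scale. Srxn1, an antioxidant enzyme of the oxidative stress list, was the 1 of 13 members called in each group, with a rise of 0.74 in ADX mice and 0.61 in sham-operated mice on the log2 scale.

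**Figure D3:**
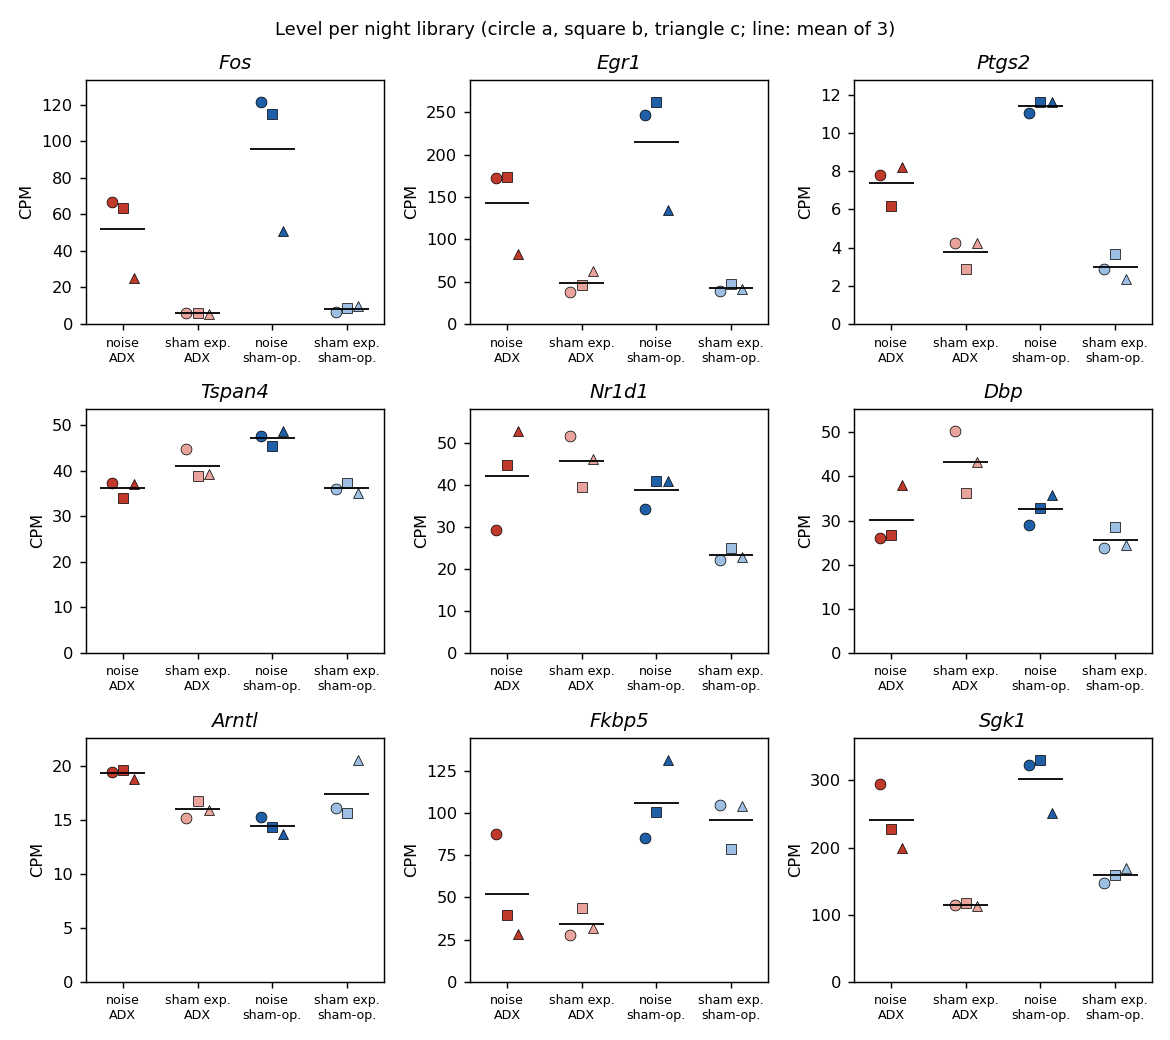
Level (CPM, linear axis from 0) of 9 genes in each night library; from left to right in each panel stand noise ADX, sham exposure ADX, noise sham-operated and sham exposure sham-operated, with symbols for libraries a to c and a line at the mean of 3. Fos and Egr1 are lowest in library c of each noise group, Ptgs2 has 3 tight noise libraries in sham-operated mice near 11.4 CPM, and Fkbp5 in the library labelled night noise ADX a stands at 87.6 CPM.

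Glucocorticoid-induced genes depended on which libraries were counted. The same 4 of 23 members rose in each surgery group, where 0.434% (ADX) and 0.668% (sham-operated) of all genes did. They were Dusp1, a phosphatase of MAP kinases, Sgk1, a kinase that controls ion transport, Pdk4, which restrains pyruvate oxidation, and Errfi1, an inhibitor of EGF receptors. With all libraries the median noise effect of the list was 0.48 in ADX mice and 0.20 in sham-operated mice, and 18 of 23 interactions lay above 0 with a median of 0.16. Over all genes 8025 of 16607 lay above 0. Without the library labelled night noise ADX a the ADX median was 0.05. Then 18 of 23 interactions lay below 0, against 53.1% of all genes, with a median of -0.08. The list's centred level was 0.45 in the library labelled night noise ADX a and -0.22 and -0.47 in b and c, against -0.63 to -0.38 in the sham exposure libraries of ADX mice and 0.11 to 0.51 in the 6 sham-operated libraries. Sgk1 had 295, 228 and 200 CPM after noise and 114, 118 and 113 CPM after sham exposure in ADX mice, and 323, 331 and 251 CPM after noise and 148, 158 and 170 CPM after sham exposure in sham-operated mice. Its fold was 2.10 in ADX mice and 1.90 in sham-operated mice, and without the library labelled night noise ADX a the rise in ADX mice was 0.89 on the log2 scale (adjusted p = 0.000169) and the interaction -0.03. Pdk4 had 59.7, 68.4 and 57.7 CPM after noise and 34.3, 32.7 and 38.6 CPM after sham exposure in ADX mice, and 65.3, 80.4 and 67.7 CPM after noise and 34.6, 40.5 and 37.6 CPM after sham exposure in sham-operated mice. In neither gene did noise and sham exposure libraries overlap within a surgery group. Fkbp5, a chaperone of the receptor, had an interaction of 0.46 with all libraries and -0.17 without the library labelled night noise ADX a, and Hif3a, another glucocorticoid target, 1.48 and -0.09. The genes of the receptors themselves, Nr3c1 and Nr3c2, had interactions of -0.02 (SE 0.10) and 0.06 (SE 0.20), and none of the 12 genes of corticosteroid receptors and metabolism was called in either group.

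Among 20 clock genes, Nr1d1, Dbp, Arntl and Nfil3 had an unadjusted interaction p under 0.05 (6.36% of all genes did), and none passed. Nr1d1, which encodes the clock repressor REV-ERB alpha, had 29.2, 44.7 and 52.9 CPM after noise and 51.6, 39.5 and 46.2 CPM after sham exposure in ADX mice. Its levels in sham-operated mice were 34.3, 41.0 and 41.0 CPM after noise and 22.0, 24.95 and 22.7 CPM after sham exposure. It rose in sham-operated mice by 0.74 on the log2 scale (adjusted p = 0.0204), where the groups did not overlap, and its value in ADX mice was -0.12 with overlapping groups. The interaction was -0.86 (SE 0.21, unadjusted p = 0.0007, edgeR adjusted p = 0.749), and -0.65 without the library labelled night noise ADX a. Dbp, an output gene of the clock, had 26.0, 26.7 and 38.1 CPM after noise and 50.3, 36.2 and 43.2 CPM after sham exposure in ADX mice, and 28.9, 32.7 and 35.9 CPM after noise and 23.8, 28.6 and 24.4 CPM after sham exposure in sham-operated mice. Its interaction was likewise -0.86 (SE 0.23, unadjusted p = 0.00147, edgeR adjusted p = 0.749). Arntl, which encodes the clock activator BMAL1, went the other way by point estimate: 19.5, 19.7 and 18.9 CPM after noise and 15.2, 16.8 and 16.0 CPM after sham exposure in ADX mice, and 15.3, 14.4 and 13.7 CPM after noise and 16.1, 15.7 and 20.6 CPM after sham exposure in sham-operated mice. Its interaction was 0.55 (SE 0.16, unadjusted p = 0.00308, edgeR adjusted p = 0.76). In ADX mice the Arntl noise libraries lay above the sham exposure libraries, and in sham-operated mice below them. Of the 20 clock genes, 1 was called in ADX mice (Bhlhe40, adjusted p = 0.0448, and 0.141 without the library labelled night noise ADX a) and 2 in sham-operated mice (Bhlhe40 and Nr1d1), and 9 of 20 interactions lay below 0. Over all genes 0.434% were higher after noise in ADX mice and 0.668% in sham-operated mice, and 51.7% of interactions lay below 0. Per1 and Per2, which both the clock and glucocorticoids drive, had interactions of 0.30 and -0.03 with all libraries and -0.21 and -0.38 without the library labelled night noise ADX a, where Per1 stood at 124 CPM against 59.6 and 51.3 CPM in b and c.

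The genes with the smallest unadjusted p of the interaction were mostly outside these lists, and none of them passed. Tspan4, a tetraspanin membrane protein, lies on chromosome 7 from 141475240 to 141493427 (GRCm38). It had 37.3, 34.0 and 37.1 CPM after noise and 44.8, 38.9 and 39.3 CPM after sham exposure in ADX mice, and 47.5, 45.4 and 48.8 CPM after noise and 36.0, 37.3 and 35.1 CPM after sham exposure in sham-operated mice. Noise libraries lay below sham exposure libraries in ADX mice and above them in sham-operated mice, where the rise of 0.39 was called (adjusted p = 0.00697). Its interaction was -0.57 (SE 0.10, unadjusted p = 2.02e-05), that is a ratio of folds of 0.674 with a 95% interval from 0.58 to 0.783, and the adjusted p was 0.336 in edgeR and 0.00472 in DESeq2. Adamts10, a metalloprotease bound to microfibrils, had 102, 101 and 113 CPM after noise and 120, 114 and 122 CPM after sham exposure in ADX mice, and 117, 124 and 125 CPM after noise and 100, 93.3 and 101 CPM after sham exposure in sham-operated mice. Its interaction was -0.48 (SE 0.10), with an adjusted p of 0.556 in edgeR and 0.0399 in DESeq2. The other 8 values of smallest p below 0 were those of Tle2 (-0.40), a corepressor that fell in ADX mice (adjusted p = 0.0309, and 0.156 without the library labelled night noise ADX a), Dlx5 (-0.67) and Dlx3 (-0.69), homeobox factors of bone and ear, Zfp503 (-0.56), Ccl19 (-1.03), a lymphocyte chemokine, Ercc3 (-0.30), a DNA helicase, Wisp2 (-0.90) and Lcat (-0.55), an enzyme of cholesterol esters.

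Above 0, the 10 smallest p-values belonged to Map3k9 (0.43), Rhebl1 (0.68), Ccdc126 (0.55), Khdrbs3 (0.32), Grsf1 (0.29), Grm7 (0.64), Soga3 (0.64), Ksr2 (0.89), Katnal1 (0.28) and D430019H16Rik (1.05). Map3k9, a kinase upstream of JNK, had 68.6, 65.8 and 63.9 CPM after noise and 64.5, 58.3 and 59.2 CPM after sham exposure in ADX mice. In sham-operated mice it had 59.0, 58.8 and 62.0 CPM after noise and 67.2, 73.2 and 82.3 CPM after sham exposure, and it fell there by 0.31 on the log2 scale (adjusted p = 0.0281). Khdrbs3, a splicing factor, was called in ADX mice (adjusted p = 0.031, and 0.136 without the library labelled night noise ADX a), with 23.2, 23.1 and 21.7 CPM after noise and 19.0, 18.4 and 18.5 CPM after sham exposure, against 22.0, 22.3 and 22.3 CPM after noise and 22.98, 22.9 and 22.4 CPM after sham exposure in sham-operated mice. Grm7, a glutamate receptor of neurons, was called in sham-operated mice with a fall of 0.57 on the log2 scale and stood at 0.07 in ADX mice. Rab17, a small GTPase of epithelial transport, had 8.72, 8.75 and 8.14 CPM after noise and 12.8, 12.7 and 12.6 CPM after sham exposure in ADX mice, and 6.86, 5.32 and 7.67 CPM after noise and 12.4, 13.6 and 11.3 CPM after sham exposure in sham-operated mice. Its fall was called in sham-operated mice (adjusted p = 0.000874) and not in ADX mice (adjusted p = 0.0679), and its interaction of 0.33 (SE 0.20) did not pass.

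Several lists of cell types and of interferon signalling lay to one side of 0 as groups, with no member called. Their members share the same libraries, so the signs are not independent of each other. In bulk tissue, fewer cells of a type and less RNA per cell cannot be told apart. For the 13 markers of spiral ganglion neurons, all interactions lay above 0 with a median of 0.40, and 7 had an unadjusted p under 0.05, against 3.26% of all genes in that direction. The median noise effect was 0.20 in ADX mice and -0.24 in sham-operated mice. Tubb3, a neuronal tubulin, had 94.9, 94.9 and 113 CPM after noise and 96.6, 79.9 and 85.8 CPM after sham exposure in ADX mice, and 90.1, 93.6 and 107 CPM after noise and 95.5, 127 and 123 CPM after sham exposure in sham-operated mice. Its interaction was 0.46 (SE 0.16, edgeR adjusted p = 0.76). The centred level of the list was -0.09, -0.03 and 0.22 after noise and -0.11, -0.30 and -0.33 after sham exposure in ADX mice. In sham-operated mice it was -0.25, 0.16 and 0.21 after noise and -0.20, 0.38 and 0.34 after sham exposure. Libraries a lay lower than b and c in both exposures of sham-operated mice, and there the exposures overlapped. In ADX mice every noise library lay above every sham exposure library. The 17 hair cell markers also lay above 0 throughout, with a median of 0.18 and 1 unadjusted p under 0.05 (Tmc1, a subunit of the mechanotransduction channel, at 0.54). Over all genes 8025 of 16607 interactions lay above 0, and 3.26% had such a p in that direction.

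Interferon-stimulated genes lay below 0 for all 22 members, against 51.7% of all genes. Their median interaction was -0.35, and -0.27 without the library labelled night noise ADX a. The median noise effect was -0.21 in ADX mice and 0.18 in sham-operated mice, and 5 members had an unadjusted p under 0.05 (3.1% of all genes did in that direction). Stat2, a transcription factor of interferon signalling, had 66.8, 70.6 and 68.3 CPM after noise and 74.8, 87.4 and 74.2 CPM after sham exposure in ADX mice, and 66.0, 72.4 and 71.2 CPM after noise and 61.8, 62.9 and 57.5 CPM after sham exposure in sham-operated mice. Its interaction was -0.40 (SE 0.11, edgeR adjusted p = 0.75). Night sham exposure ADX b was the highest library for the list, at a centred level of 0.68 against -0.36 to 0.22 in the other 11, and Ifit1, an antiviral effector, stood there at 51.6 CPM against 9.85 to 23.3 CPM elsewhere. Without that library the median interaction of the list was -0.20.

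Markers of bone and of lymphoid cells, which sit in the wall of the cochlea and its marrow, also lay mostly below 0. For bone, 9 of 12 members did, against 51.7% of all genes, with a median of -0.38 and 7 at an unadjusted p under 0.05, against 3.1% of all genes in that direction. Bglap, which encodes osteocalcin, had 53.6, 78.6 and 103 CPM after noise and 133, 95.01 and 116 CPM after sham exposure in ADX mice, and 111, 88.7 and 91.8 CPM after noise and 79.4, 74.7 and 51.4 CPM after sham exposure in sham-operated mice. Its interaction was -1.05 (SE 0.29, edgeR adjusted p = 0.75). For lymphoid cells 11 of 13 members lay below 0 with a median of -0.48, and the exceptions were the T cell genes Cd3e (1.85) and Cd3g (1.08), at 0.69 and 0.66 without the library labelled night noise ADX a. Rag1, a recombinase of early lymphocytes, had 64.1, 77.5 and 80.7 CPM after noise and 112, 98.6 and 153 CPM after sham exposure in ADX mice, and 67.3, 58.2 and 53.1 CPM after noise and 49.9, 57.4 and 49.6 CPM after sham exposure in sham-operated mice. Pituitary markers had a median interaction of 7.95, and 3.78 without the library labelled night noise ADX a. Muscle markers had a median of -1.12, and 0.33 without the library labelled night noise ADX a and night noise sham-operated b, and cerebellar markers -1.06 and -0.60. The summed level of the 11 muscle markers was 111 CPM in night noise sham-operated b and 65.0 CPM in night sham exposure sham-operated c, against 30.4 to 36.0 CPM in the other 10 libraries. The centred level of cerebellar markers was 0.83, 2.15 and 0.77 in night noise sham-operated a, b and c, against -0.78 to 0.31 in the other groups. The part of these transcripts in the values of other genes was not tested.

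**Figure D4:**
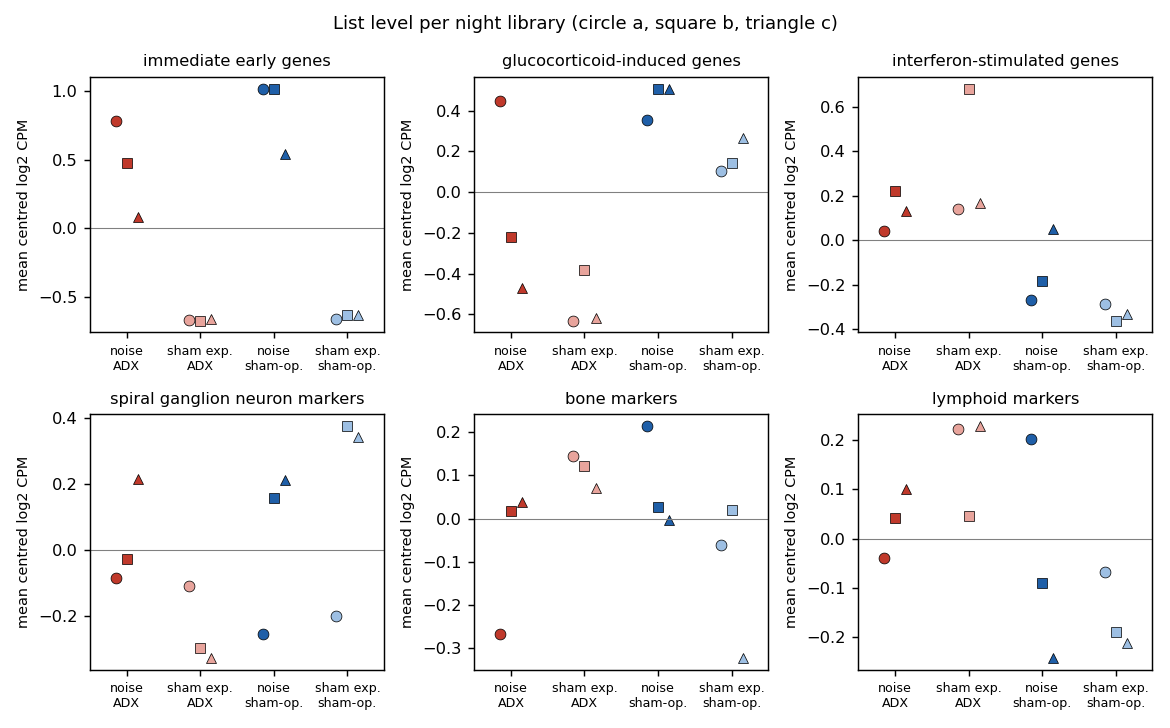
Level of 6 lists in each night library, as log2 CPM centred per gene over the 12 libraries and averaged over members, with the groups from left to right as noise ADX, sham exposure ADX, noise sham-operated and sham exposure sham-operated. Immediate early genes separate noise from sham exposure in both surgery groups, and the library labelled night noise ADX a (first circle) sits at 0.45 for glucocorticoid-induced genes, among the sham-operated libraries.

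**Figure D5:**
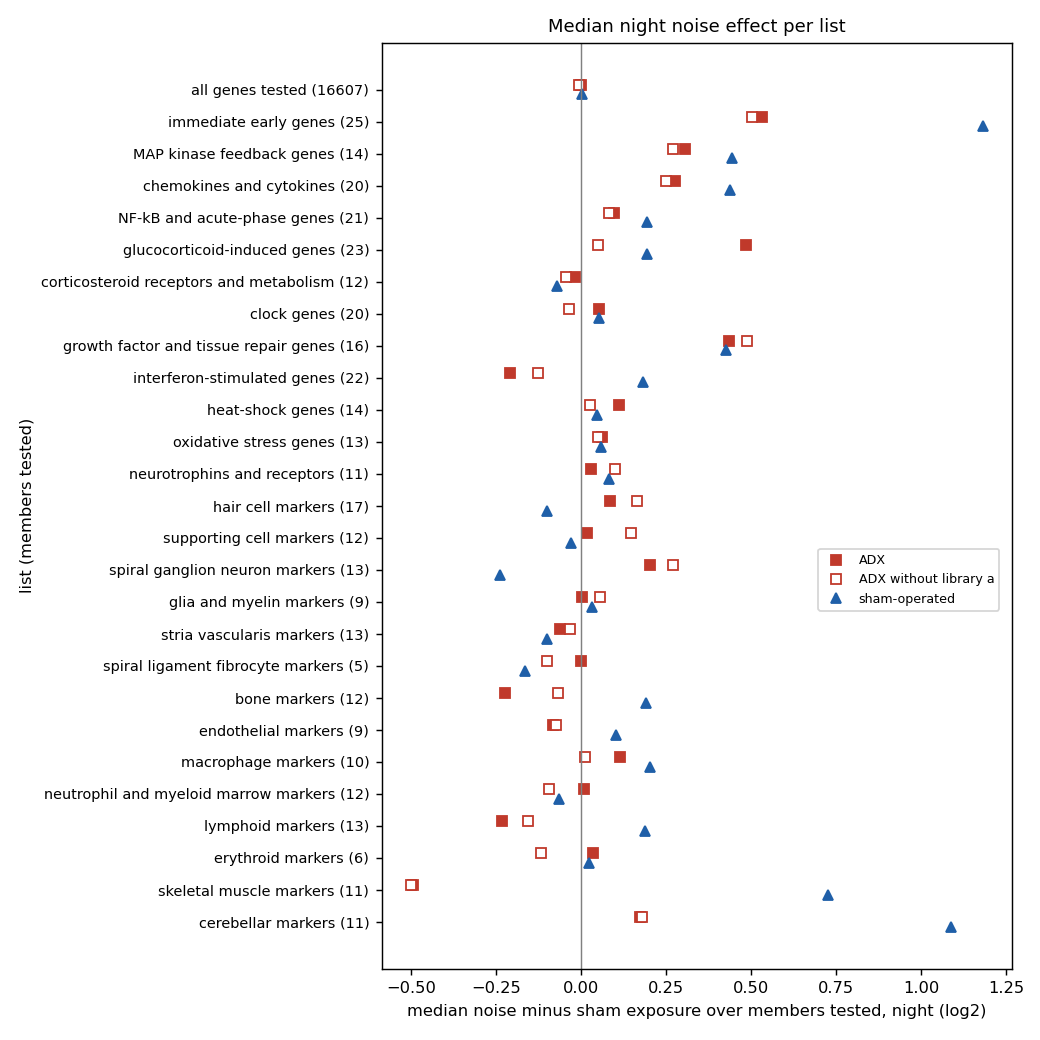
Median night noise effect (log2) over the tested members of each list in ADX mice (squares) and sham-operated mice (triangles), with the ADX value without the library labelled night noise ADX a as open squares; pituitary markers, at 7.96 in ADX mice, are left out. Immediate early genes stand at 0.53 and 1.18, and glucocorticoid-induced genes move to 0.05 in ADX mice without that library.

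Genes called for noise in the day libraries, which the night contrast does not use, were also followed at night. Both contrasts came from the same fit, so the filter, the scaling and the estimate of spread were shared. By day 371 genes (2.23%) were called for the mean noise effect over both surgery groups, 189 higher (1.14%) and 182 lower (1.1%). At night the 189 had a median noise effect of 0.37 in ADX mice and 0.42 in sham-operated mice on the log2 scale. Their median interaction was -0.08 (quartiles -0.22 and 0.07), against -0.01 over all genes. Of the 189, 125 lay below 0 and 64 above, against 51.7% of all genes below 0. An unadjusted p under 0.05 was found for 20 of them, against 6.36% of all genes. Without the library labelled night noise ADX a the median was -0.12. For the 182 genes lower by day, the median at night was -0.12 in ADX mice and -0.12 in sham-operated mice, with a median interaction of 0.01.

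The interaction at night was also set against the same interaction by day. With all libraries no gene passed for the day interaction or for night minus day with edgeR's quasi-likelihood test, with 2716 genes (16.4%) and 2162 genes (13%) at an unadjusted p under 0.05 and smallest adjusted p-values of 0.155 and 0.0973. The count of 0 for the day rested on 1 library: without day noise ADX a the day interaction had 811 calls and night minus day 554. DESeq2 called 153 and 200 genes, and limma voom 264 and 574. For the immediate early genes the median interaction was -0.38 at night and 0.52 by day, with 21 of 25 above 0 by day. Over all genes tested 8312 of 16607 lay above 0 by day, which is the background for the day counts that follow. Other lists also lay to one side by day. Glucocorticoid-induced genes had a median of 0.46 by day, with 22 of 23 above 0. At night their median was 0.16, and -0.08 without the library labelled night noise ADX a. The median interaction was 0.07 at night and 0.63 by day for neutrophil markers (12 of 12 above 0 by day). For erythroid markers it was -0.01 at night and 0.61 by day (6 of 6), and for macrophage markers -0.07 at night and 0.45 by day (10 of 10). Heat-shock genes had 0.09 at night and 0.39 by day (14 of 14), and glial markers 0.07 at night and -0.62 by day. Their part in the values of the early genes was not tested. Nr1d1 had interactions of -0.86 at night and 0.73 by day, a difference of -1.58 (adjusted p = 0.128). For the spiral ganglion neuron markers the medians were 0.40 at night and -0.51 by day. The lowest adjusted p of night minus day, 0.0973, belonged to Map3k9 and Khdrbs3 among the genes named here.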

How the data were processed

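RNA of whole cochlea was sequenced from TruSeq stranded mRNA libraries as 50-base single reads, per the labels' protocols. Per the submitters' processing notes the tools were TopHat2 2.0.11 and HTSeq 0.6p1 with mm10. The annotation and the strand setting of the counting are not given in the sources used here, so overlapping and antisense genes cannot be told apart. The authors deposited raw counts per gene, and no other unit was used. CPM and log2 CPM (prior count 2) were computed here. Of 23420 entries, 27 had names that a spreadsheet had turned into dates (0.214% of counts). They were tested but are not named.

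Genes with low counts were removed with filterByExpr over 8 groups, libraries were scaled by TMM, and all 24 libraries were fitted with edgeR 4.0.16 (robust quasi-likelihood test, Benjamini-Hochberg adjustment, threshold 0.05) in R 4.3.3. DESeq2 1.42.0 and limma 3.58.1 (voom with library weights) were alternatives, with other size factors, no filter, the night libraries alone, a block for the replicate letter, each library left out, and the library labelled night noise ADX a and night noise sham-operated b left out together. The pipeline was tested on simulated data. The 12 night libraries held 20409233 to 32600253 counts.

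Named genes were all calls of the interaction (none), the 10 of smallest unadjusted p in each direction among genes averaging 0 or more in log2 CPM, a fixed set, and the 2 members with the largest values in each direction of each of 27 lists. Other genes were named after their values were seen. Members and lists were chosen with earlier results of these data known. Positions are from GENCODE vM21.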

Additional observations from a re-analysis of the deposited data

How the results depend on the processing

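The count of 0 for the interaction held in all settings but DESeq2, which called 3 genes (Tspan4, adjusted p = 0.00472, Adamts10, 0.0399, and Pomc, 0.0241); over the alternatives the adjusted p of Tspan4 ran from 0.00472 to 0.831. Genes at an unadjusted p under 0.05 numbered 770 to 1649. Calls for noise in ADX mice numbered 184 with DESeq2, 49 with the night libraries alone, 39 without the library labelled night noise ADX a and night noise sham-operated b, and 37 to 134 with 1 library left out. In sham-operated mice they numbered 210 with DESeq2, 254 with limma voom and 78 to 118 with 1 library left out. The day interaction had 153 calls with DESeq2, 264 with limma voom, 12 with the day libraries alone and 0 to 811 with 1 library left out, the highest without day noise ADX a. Night minus day had 200 calls with DESeq2, 574 with limma voom and 0 to 554 with 1 library left out, the highest without day noise ADX a and next 124 without night sham exposure sham-operated a. The cause was not tested. With the replicate letter as a block the interaction had 0 calls and 1011 genes at an unadjusted p under 0.05, and noise had 76 calls in ADX mice and 120 in sham-operated mice. Correlations of deviations ran from -0.272 to 0.512 over 18 same-letter pairs, 6 of them over 0.1. Over 36 other pairs they ran from -0.443 to 0.293, 11 of them over 0.1. These ranges overlap and do not settle whether the letters pair the samples. Of 2622 values of 138 named genes under other settings, 111 changed sign, in 40 genes, none of them past the threshold. Of 513 list medians, 52 changed sign. With 3 libraries a group, an interaction within about 0.289 of the estimate on the log2 scale cannot be told from it for the median gene.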
